A study of Caenorhabditis elegans with 6 samples.

Results

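Moulting regulators and effectors are described here in whole adult Caenorhabditis elegans on 2 bacterial diets. The 10 genes were chosen by symbol and were nhr-23, nhr-25, nekl-2, lrp-1, noah-1, noah-2, mlt-11, bli-5, mlt-8 and mlt-10. All 10 were found among the 18811 genes of the deposited tables, and 9 of them were among the 12144 genes abundant enough to test. RNA was taken from the whole body of synchronized adults grown at 20 °C and placed at larval stage 4 on Escherichia coli BW25113 or on the mutant strain labelled purE, with 3 libraries per diet. The labels give neither the worm strain nor the worms' age at harvest, and they do not say how the purE strain was made. They do not say that replicates came from separate cultures, so p-values measure only the spread between these libraries.

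A nematode replaces its cuticle at the end of each larval stage and does not moult as an adult. In larvae, transcripts of many epidermal genes rise and fall with each moult, and the nuclear receptor NHR-23 is known as a driver of that rhythm. The epidermis then builds a temporary apical matrix, takes up sterols and remodels its surface by endocytosis, secretes the next cuticle, and uses proteases and their inhibitors to time the release of the old one.

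The libraries held between 21880627 and 22607939 estimated counts, and TMM scaling factors were 0.844 to 1.20. Within a diet, chi-square values of the counts over their degrees of freedom were 42.5 to 350.0, where counting error alone gives about 1. The purE libraries were not alike, and each result below is given with that in view. Across genes, which are not independent replicates, the log2 CPM of purE replicate 2 correlated at 0.821 to 0.839 with the BW25113 libraries, whereas purE replicate 1 correlated at 0.955 to 0.978 with them. CPM is the count relative to the TMM-scaled library size, and a count of 3, the most that a count of 0 allows, stood at 0.110 to 0.160 CPM, a limit that covers counting error only.

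No moulting gene was called between the diets at an adjusted p of 0.05 in edgeR's quasi-likelihood test over all 6 libraries. The same test called 0 of the 12144 genes in either direction, or 0%. Among the 9 tested genes, nhr-25 was lower and mlt-10 higher on purE at an unadjusted p under 0.05, where 3.81% of all tested genes were lower and 12.7% higher. With limma-voom 0 genes were called, and nhr-25 was the 1 tested moulting gene at an unadjusted p under 0.05, where 3.86% of all genes were lower and 8.98% higher. The spread of the effector genes within the purE diet was large: purE replicate 2 held the highest level of 6 of the 10 genes and purE replicate 1 the lowest level of 7. Among all tested genes, purE replicate 2 was highest for 36% and purE replicate 1 lowest for 9.84%. Of all genes tested, 51.6% had a positive log2 fold change and the median was 0.03, against 4 of 9 moulting genes and a median of -0.03, which was -0.27 without purE replicate 2. In whole worms, fewer cells of a type and less RNA per cell cannot be told apart.

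**Figure D1:**
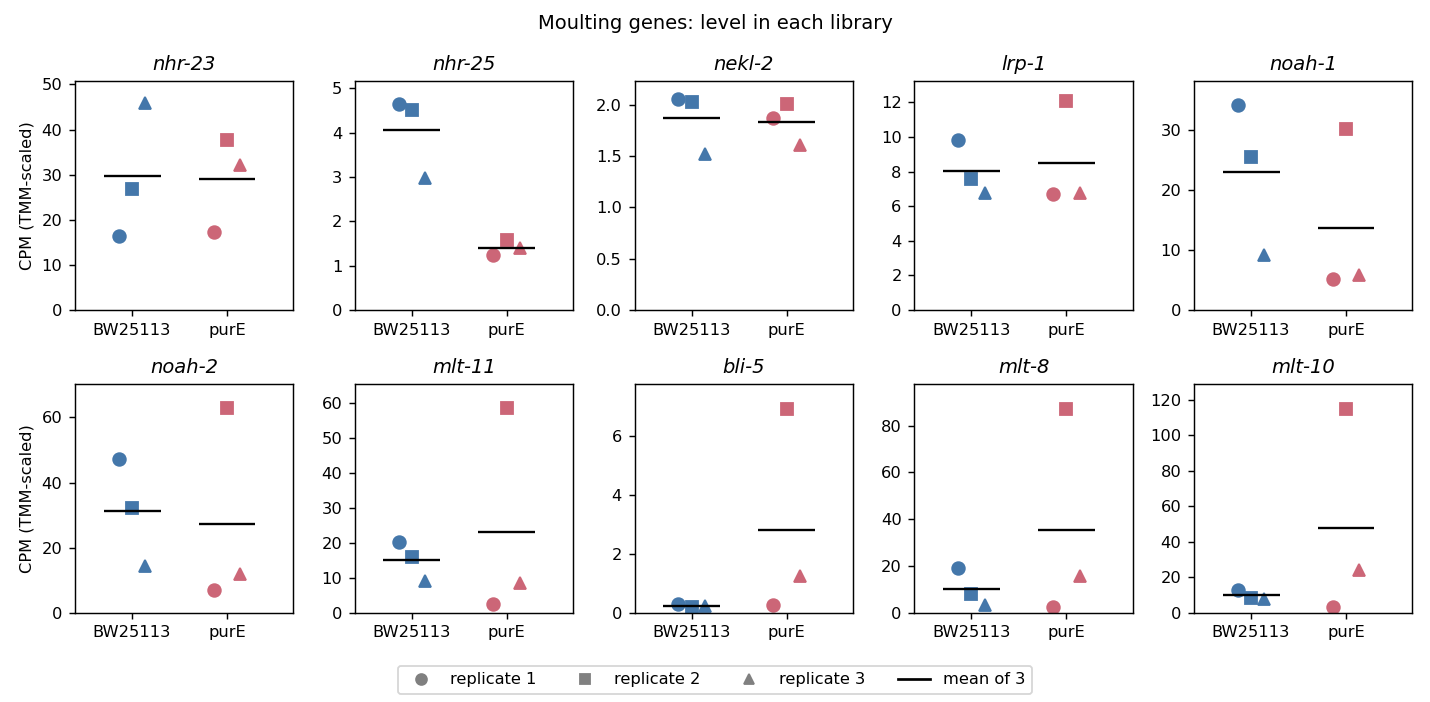
TMM-scaled CPM of each moulting gene on a linear axis from 0, by diet, with a symbol per library and a line at the mean of 3. The purE libraries of nhr-25 (1.25 to 1.58 CPM) lie below all BW25113 libraries, while mlt-8, mlt-10, mlt-11 and bli-5 stand far higher in purE replicate 2 than in any other library.

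The gene nhr-23 encodes a nuclear receptor of the ROR class that is required for larval moulting. It lies on the forward strand of chromosome I at 7214745 to 7221299 in build WBcel235. Its BW25113 libraries stood at 16.5, 26.9 and 46.0 CPM for replicates 1, 2 and 3, and its purE libraries at 17.3, 37.7 and 32.1 CPM. Every purE library fell between the lowest and the highest BW25113 library. The means were 29.8 ± 14.96 and 29.0 ± 10.6 CPM (SD, n = 3), and the log2 fold change of purE over BW25113 was -0.04 ± 0.43 (SE), and edgeR gave an adjusted p of 0.963. Its direction was not fixed, since the value was 0.33 without BW25113 replicate 3 and -0.36 without BW25113 replicate 1. On BW25113 the gene did not follow these effectors: replicate 3, its highest library, was the lowest BW25113 library of mlt-8, mlt-10, mlt-11, noah-1 and noah-2. On purE its order was that of mlt-8, mlt-10, mlt-11, bli-5, noah-1 and noah-2. Replicate 1 was lowest and replicate 2 highest for each of them.

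The gene nhr-25 encodes the worm's FTZ-F1 class nuclear receptor, which acts in moulting and also in the embryonic epidermis and the vulva. It lies on the forward strand of chromosome X at 13008493 to 13013964. Its level was 4.65, 4.52 and 2.98 CPM on BW25113 and 1.25, 1.58 and 1.39 CPM on purE. It was the only moulting gene whose groups did not overlap. All purE libraries lay below all BW25113 libraries for 6.68% of the genes tested. The purE libraries of nhr-25 also agreed closely, with a range of 0.32 on the log2 CPM scale, against a median range of 0.84 over all tested genes. The log2 fold change was -1.52 ± 0.38 (SE), a level 2.87-fold lower on purE, and edgeR gave an adjusted p of 0.129. DESeq2 called it lower at an adjusted p of 0.00590, the 1 call among the 9 tested moulting genes, where it called 1.53% of all genes lower and 6.26% higher. Without 1 library at a time the log2 fold change ranged from -1.79 to -1.44, and edgeR called it without purE replicate 1, at an adjusted p of 0.0422. An exact two-sided permutation test of 3 against 3 libraries gave 0.1, the smallest p this design allows. The embryo marker list was also lower on purE, with a summed level of 17.3 to 30.03 CPM on BW25113 and 8.34 to 10.3 CPM on purE. Its 5 tested genes were ceh-32, tbx-11, pes-10, elt-1 and elt-6, and elt-1 is also among the epidermis markers. No untested gene of that list exceeded 0.716 CPM in any library. The part of embryos within the worms in the nhr-25 value was not tested.

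The kinase gene nekl-2 and the receptor gene lrp-1 act in endocytosis by the epidermis. NEKL-2 is a NIMA-related kinase, and LRP-1 is a megalin-like endocytic receptor at the apical surface. Both lie on the forward strand of chromosome I, nekl-2 at 6663161 to 6665160 and lrp-1 at 7614176 to 7634143. The nekl-2 level was 2.06, 2.03 and 1.53 CPM on BW25113 and 1.87, 2.01 and 1.605 CPM on purE, and lay in the same narrow range on both diets. Its log2 fold change was -0.03 ± 0.37 (SE), with an adjusted p of 0.964 in edgeR. The level of lrp-1 was 9.85, 7.57 and 6.75 CPM on BW25113 and 6.73, 12.1 and 6.74 CPM on purE. Only purE replicate 2 exceeded the BW25113 libraries. The log2 fold change of lrp-1 was 0.08 ± 0.35 (SE), with an edgeR adjusted p of 0.906. It was -0.25 without purE replicate 2. Of the 10 genes, nekl-2 and nhr-25 had the smallest ranges over the purE libraries, at 0.31 and 0.32 on the log2 CPM scale, and lrp-1 followed at 0.84, close to the median of all tested genes. The exons of nekl-2 share 84 bases with the opposite-strand gene ZC581.9, which stood at 0.185 to 0.9502 CPM.

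The genes noah-1 and noah-2 encode zona pellucida domain proteins of the apical extracellular matrix, related to the Drosophila protein NompA. The gene noah-1 lies on the reverse strand of chromosome I at 5874416 to 5878958, and noah-2 on the forward strand of chromosome IV at 14091254 to 14096626. The level of noah-1 was 34.3, 25.6 and 9.19 CPM on BW25113 and 5.22, 30.2 and 5.88 CPM on purE. The level of noah-2 was 47.2, 32.2 and 14.3 CPM on BW25113 and 6.87, 62.98 and 11.8 CPM on purE. For both genes purE replicates 1 and 3 lay below every BW25113 library, while purE replicate 2 lay within the BW25113 range for noah-1 and above it for noah-2. The log2 fold changes over all libraries were -0.74 ± 0.73 for noah-1 and -0.20 ± 0.78 for noah-2 (SE), with adjusted p-values of 0.596 and 0.894 in edgeR. Without purE replicate 2 they were -2.05 ± 0.51 and -1.74 ± 0.49 (SE), with adjusted p-values of 0.186 and 0.189. For noah-2 the sign turned when BW25113 replicate 1, purE replicate 1 or purE replicate 3 was left out, with values of 0.18, 0.15 and 0.15.

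The noah genes kept close company. Their log2 CPM correlated at 0.968 over the 6 libraries, a description over points that share library and depth. The ratio of noah-2 to noah-1 in FPKM, the deposited level scaled to gene length and library size, was 2.03, 1.86 and 2.31 on BW25113. On purE it was 1.95 in replicate 1, 3.08 in replicate 2 and 2.96 in replicate 3. Thus both purE libraries with the higher ratio lay above the BW25113 range, and purE replicate 1 lay within it.

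The gene mlt-11 encodes a protein with many Kunitz-type protease inhibitor domains that is needed to finish a moult. It lies on the forward strand of chromosome V at 20667205 to 20678537. Its level was 20.1, 15.8 and 9.04 CPM on BW25113 and 2.54, 58.3 and 8.504 CPM on purE. In purE replicate 2 the level was 2.90-fold above the highest BW25113 library, while the other purE libraries lay below every BW25113 library. The log2 fold change was 0.62 ± 0.92 (SE), with an adjusted p of 0.725 in edgeR. Without purE replicate 2 it turned to -1.45 ± 0.53 (SE), with an adjusted p of 0.303. Over all 6 libraries the value was also negative with limma-voom, at -0.45, on log2 FPKM, at -0.19, and with the replicate block, at -0.31. The direction of mlt-11 thus depended on 1 library and on the fit.

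The gene bli-5, mutants of which form blisters of the cuticle, encodes a small protein of the Kunitz inhibitor class. It lies on the reverse strand of chromosome III at 13427640 to 13429768. Its estimated counts were 7, 4 and 6 on BW25113 and 7, 131 and 23 on purE. These counts correspond to 0.313, 0.185 and 0.229 CPM and to 0.257, 6.92 and 1.23 CPM, so the BW25113 libraries and purE replicate 1 lay just above the detection limit. The gene was the 1 member left out by the low-count filter. With no such filter its log2 fold change was 3.41 ± 0.98 (SE), with an adjusted p of 0.107 in edgeR. In purE replicate 2 it stood 22.1-fold above its highest BW25113 library, the largest such ratio among the 10 genes, on a base of 7 counts. The exons of bli-5 share 82 bases with the opposite-strand gene cope-1, whose level was 25.4 to 35.7 CPM in all libraries, and the strand setting of the counting is not given in the sources used here. In purE replicate 2, where bli-5 was highest, cope-1 stood at 28.2 CPM, below 4 of the other 5 libraries.

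The genes mlt-8 and mlt-10 encode nematode proteins that larvae need to moult, and mlt-10 is widely used as a reporter of the moulting cycle. Both lie on chromosome II, mlt-10 on the forward strand at 546705 to 552032 and mlt-8 on the reverse strand at 569210 to 572110. They are 17177 bases apart, with 3 protein-coding genes between them. The level of mlt-8 was 19.1, 8.21 and 3.17 CPM on BW25113 and 2.35, 87.3 and 15.9 CPM on purE. The level of mlt-10 was 13.02, 8.44 and 7.90 CPM on BW25113 and 3.09, 115 and 24.4 CPM on purE. In purE replicate 2 mlt-8 was 4.58-fold and mlt-10 8.84-fold above the highest BW25113 library, and in purE replicate 1 both lay below the lowest one.

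In purE replicate 3 the genes parted: mlt-10 was 1.87-fold above the highest BW25113 library, while mlt-8 lay within the BW25113 range. The log2 fold change of mlt-10 was 2.28 ± 0.99 (SE), with an adjusted p of 0.299 in edgeR. That of mlt-8 was 1.79 ± 1.10 (SE), with an adjusted p of 0.446. Without purE replicate 2 these values became 0.49 ± 0.65 and -0.15 ± 0.79 (SE). Averaged on a log scale, as limma-voom does, the values over all libraries were 1.00 for mlt-10 and 0.82 for mlt-8, less than those of edgeR by over 1.5 times.

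An overlap limits the reading of mlt-10. Its exons share 109 bases with the same-strand gene lips-7, a lipase-class gene, and 16 bases with T27A1.3. The level of lips-7 was 0.985, 0.138 and 0.191 CPM on BW25113 and 0.221, 14.7 and 3.42 CPM on purE, and so it was high in the same purE libraries as mlt-10. How reads from the shared bases were divided between these genes is not given in the sources used here. T27A1.3 did not exceed 0.269 CPM in any library.

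**Figure D2:**
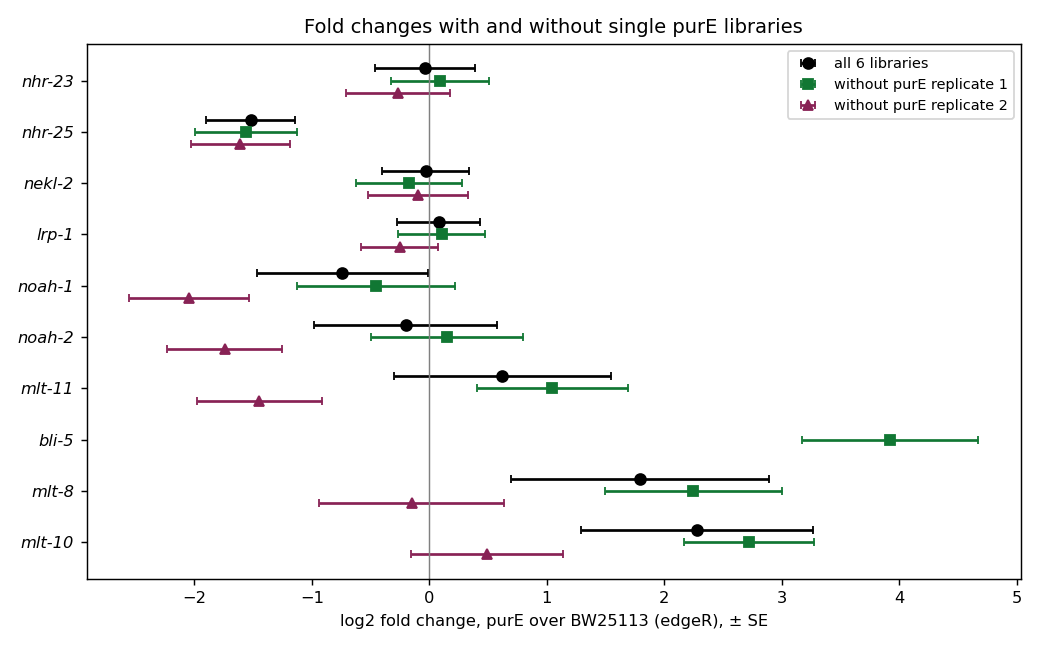
Log2 fold change of purE over BW25113 from edgeR with its standard error, over all 6 libraries and with purE replicate 1 or purE replicate 2 left out. The gene bli-5 is drawn only where it passed the low-count filter. Values of nhr-25 stay between -1.61 and -1.52, while mlt-11 moves from 1.05 without purE replicate 1 to -1.45 without purE replicate 2.

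The count of moulting genes past a threshold depended on which purE library was left out. Without purE replicate 1, edgeR called mlt-10 and bli-5 higher and nhr-25 lower at an adjusted p under 0.05, which makes 3 of 10 genes, while it called 11% of all tested genes higher and 3.48% lower. The adjusted p was 0.0129 for mlt-10 and 0.00997 for bli-5, with log2 fold changes of 2.72 and 3.92. In that fit bli-5 passed the low-count filter only through purE replicates 2 and 3, where it was high, so its call is no support. Without purE replicate 2, edgeR called none of 9 moulting genes and 0 of 12370 genes in all, while noah-1, noah-2, mlt-11 and nhr-25 were lower at an unadjusted p under 0.05. None of the 9 was higher at that p. Among all genes, 3.96% were lower and 7.07% higher at that p. These libraries were singled out after their values were seen.

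Over the purE libraries the effectors spread more than most genes did. The log2 CPM range over the purE libraries was 5.18 for mlt-10, 5.16 for mlt-8, 4.48 for mlt-11, 4.34 for bli-5, 3.18 for noah-2 and 2.51 for noah-1. These ranges exceeded those of 99.1%, 99.1%, 98.2%, 98.1%, 95.3% and 91.9% of all tested genes, in the same order. Over the BW25113 libraries the ranges were widest for mlt-8 at 2.56, noah-1 at 1.89, noah-2 at 1.72 and nhr-23 at 1.48, beyond 98.5%, 95.4%, 93.5% and 89.4% of genes. The ranges of mlt-10 and bli-5 over BW25113 were only 0.72 and 0.56, against a median of 0.69 over all genes.

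**Figure D3:**
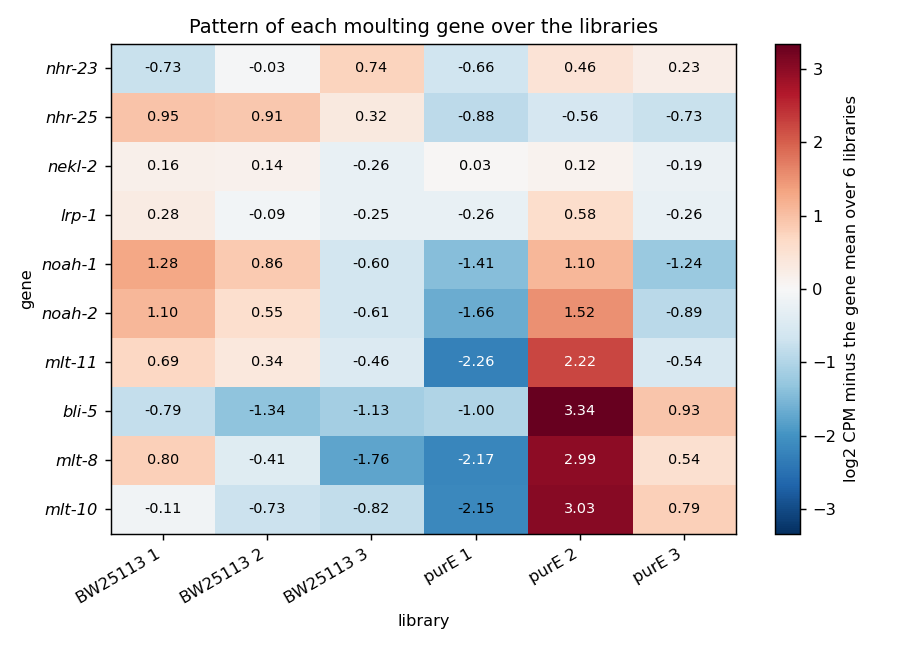
Log2 CPM of each moulting gene minus its mean over the 6 libraries, with genes in rows and libraries in columns (red above the mean, blue below). The effectors from noah-1 to mlt-10 are high in purE replicate 2 (1.10 to 3.34) and low in purE replicate 1 (-2.26 to -1.004). On purE nhr-23 has the same order (0.46 in replicate 2 and -0.66 in replicate 1), but its highest library is BW25113 replicate 3 (0.74). The gene nhr-25 is below its mean in every purE library.

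The effectors formed more than 1 pattern. Over the 6 libraries the log2 CPM of mlt-8 and mlt-10 correlated at 0.946, that of mlt-10 and bli-5 at 0.927, and that of mlt-11 and noah-2 at 0.951. Between mlt-10 and noah-1 the value was 0.473, and between bli-5 and noah-1 it was 0.220. The points share library and depth, and purE replicate 2 weighs heavily in them: without it mlt-8 with mlt-10 gave 0.861, mlt-11 with noah-2 0.940, and bli-5 with noah-1 -0.437. The ratio of mlt-10 to noah-1 in FPKM showed the split directly, at 0.617, 0.537 and 1.40 on BW25113 and 0.959, 6.19 and 6.76 on purE. Thus purE replicate 3, in which noah-1 was low, had as high a ratio as purE replicate 2, in which noah-1 was high. The receptor gene nhr-23 correlated at -0.0697 with noah-1, 0.186 with mlt-8 and 0.469 with mlt-10. For nhr-25 the values were 0.658 with noah-1 and -0.191 with mlt-10. Without purE replicate 2, nhr-25 correlated at 0.948 with noah-1, 0.928 with noah-2, 0.864 with mlt-11 and 0.165 with mlt-10. In those 5 libraries nhr-23 correlated at -0.282 with noah-1, -0.177 with mlt-8 and 0.308 with mlt-10.

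Levels between genes were compared in FPKM, which is scaled per length. On BW25113 nhr-23 had the highest mean, at 13.9 ± 8.39 FPKM, followed by noah-2 at 12.6 ± 6.05, mlt-8 at 9.68 ± 7.49, noah-1 at 6.25 ± 3.19 and mlt-10 at 4.43 ± 1.11 FPKM (SD, n = 3). The libraries of each of these genes overlapped those of the next, so the order of neighbours was not beyond the spread. Genes further apart could be separate. The lowest libraries of nhr-23 and noah-2, at 7.13 and 6.62 FPKM, lay above the highest of mlt-10, at 5.68 FPKM. A gap without overlap followed mlt-10. Below it mlt-11, nhr-25 and nekl-2 overlapped in turn, at means of 2.19, 1.81 and 1.54 FPKM. The last places were held by lrp-1 at 0.57 ± 0.0889 and bli-5 at 0.37 ± 0.101 FPKM, each apart from the gene above it.

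On purE the highest means were those of mlt-8 at 29.0 ± 37.2 and mlt-10 at 18.05 ± 22.4 FPKM, with SDs larger than the means. Next came nhr-23 at 11.6 ± 2.72, noah-2 at 9.63 ± 10.4, bli-5 at 3.58 ± 4.53, noah-1 at 3.35 ± 3.19 and mlt-11 at 2.65 ± 3.41 FPKM (SD, n = 3). Every neighbouring pair down to nekl-2, at 1.42 ± 0.362 FPKM, overlapped. The only gap lay between nekl-2 and nhr-25, at 0.587 ± 0.0709 FPKM, which overlapped lrp-1 at 0.55 ± 0.16 FPKM. In BW25113 worms nhr-25 and nekl-2 had overlapped, with nhr-25 the higher.

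**Figure D4:**
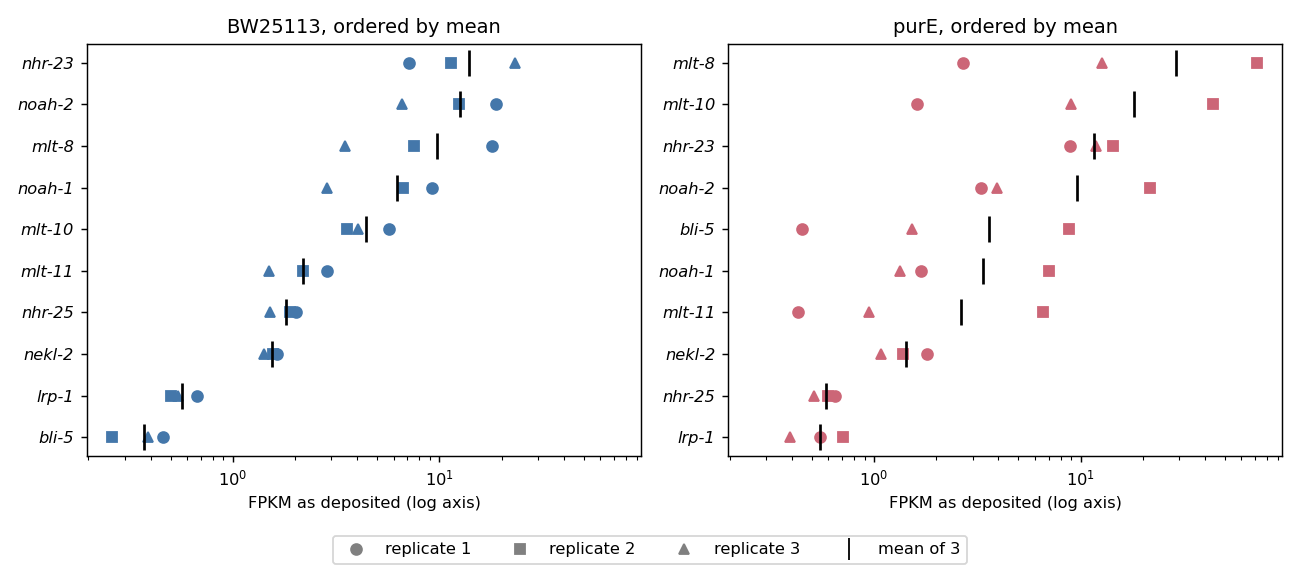
Deposited FPKM of each gene on a log axis, by diet, ordered by the mean of 3 libraries (black mark) with a symbol per library. On purE the libraries of mlt-8 run from 2.68 to 71.5 FPKM, and those of nhr-25 from 0.51 to 0.65 FPKM.

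Other genes of the moulting machinery were read as lists beside the 10. Of 11 further regulators 10 were tested, with a median log2 fold change of 0.22, and at an unadjusted p under 0.05 it held 1 gene higher and 1 lower. The lower one was hbl-1, a timing factor of larval stages, with -2.78 ± 0.46 (SE). The higher one was lin-29, a zinc finger factor of the switch from larva to adult, at 1.03 ± 0.40 (SE). It stood at 2.46 to 3.81 CPM on BW25113 and 4.59 to 9.13 CPM on purE, without overlap. All 12 genes of uptake and trafficking were tested, with a median of 0.18 and 1 gene higher at that p. It was mlt-4, a partner of the NEKL kinases, with 1.29 ± 0.56 (SE), and the patched-related ptc-3 had 1.15 ± 0.59 (SE) without passing it. The kinase nekl-3 also showed no overlap, at 1.26 to 1.80 CPM on BW25113 and 1.80 to 3.22 CPM on purE, although the gap was small. This gene was chosen after its values were seen. Such a gap, with the lowest purE value beyond the highest BW25113 value, occurred in 13.1% of the 12144 genes tested. Here it held for 1 regulator, lin-29, and for 2 uptake genes, mlt-4 and nekl-3. The gap alone therefore does not set these genes apart. The sign of both medians was not fixed. That of the regulators was -0.50 without purE replicate 2 and -0.02 on log2 FPKM. That of the uptake genes was -0.09 without purE replicate 2, -0.04 without BW25113 replicate 3 and -0.23 on log2 FPKM.

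All 13 further genes of the precuticle matrix were tested, with a median of 0.27 and 1 gene higher. It was qua-1, a hedgehog-related gene, with 2.61 ± 1.04 (SE), and fbn-1, a fibrillin-related gene, had -1.37 ± 0.67 (SE) without passing. The level of fbn-1 was 4.00 to 9.76 CPM on BW25113 and 1.18, 5.65 and 1.23 CPM on purE, the same order of purE libraries as for the noah genes. The median of the precuticle list turned to -1.14 without purE replicate 2. In that fit 5 genes in either direction were past an unadjusted p of 0.05, against 3.96% of all genes lower and 7.07% higher. The list's median was also negative without BW25113 replicate 3, at -0.31, with limma-voom, at -0.37, and on log2 FPKM, at -0.34. Of 16 proteases, peroxidases and related genes 15 were in the files and 13 tested, with a median of 0.65 and 2 genes higher. The median was 0.23 without purE replicate 2 and 0.25 on log2 FPKM. They were the astacin gene nas-38 with 3.11 ± 0.79 and the peroxidase gene mlt-7 with 1.12 ± 0.43 (SE). The nas-38 level was 0.269 to 0.610 CPM on BW25113 and 0.809, 6.81 and 2.99 CPM on purE. Adjusted over all genes, edgeR called none in these 4 lists. DESeq2 called hbl-1 lower and qua-1 and nas-38 higher, where it called 1.53% of all genes lower and 6.26% higher.

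Collagens of the cuticle surface stood on both sides of the moulting genes. Of the 6 furrow collagens, dpy-9 and dpy-8 had log2 fold changes of 4.07 ± 1.06 and 4.80 ± 1.29 (SE), and the list's median was 0.52. That median turned to -1.42 without purE replicate 2, -0.25 with limma-voom, -0.22 on log2 FPKM and -0.03 without BW25113 replicate 3. The furrow collagen dpy-10 was chosen because its pattern lay near that of noah-1, so their likeness is no separate result. It was at 27.9, 16.7 and 7.48 CPM on BW25113 and 4.96, 18.9 and 4.76 CPM on purE. Its purE replicates 1 and 3 lay below every BW25113 library, as for noah-1. No other furrow collagen had purE replicate 3 below every BW25113 library. Of 13 strut and body-shape genes, 12 were in the files and tested, with a median of 5.09. At an unadjusted p under 0.05, 9 of them were higher and 1 was lower, against 12.7% and 3.81% of all tested genes. With limma-voom 4 of the 12 passed that p and the median was 3.78, and without purE replicate 2 edgeR's median was 3.32. Their summed level was 528 to 1689 CPM on BW25113 and 274, 15568 and 3799 CPM on purE, so purE replicate 1 lay below every BW25113 library. The lower one was dpy-17 with -4.37 ± 0.84, and lon-3 had 6.09 ± 1.46 (SE). Most of these genes are collagens, and dpy-18 encodes a subunit of a collagen-modifying hydroxylase. The largest moulting effector value, 2.28 for mlt-10 among the tested genes, was thus below the median of the strut and shape genes, and whether the lists differ was not tested.

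**Figure D5:**
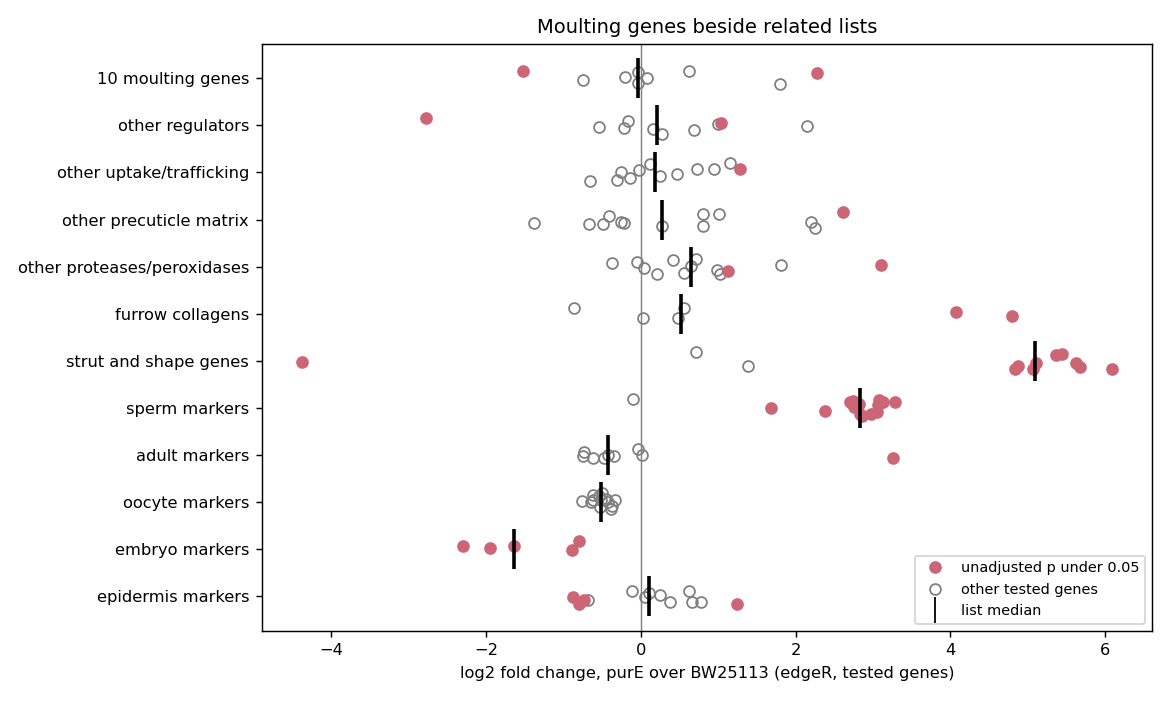
Log2 fold change of purE over BW25113 for the tested genes of each list, with filled points for an unadjusted p under 0.05 and a bar at the list median. Medians run from -1.64 for embryo markers to 5.09 for strut and shape genes, with the moulting genes at -0.03.

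Markers of stage and cell type also differed between the libraries, but not always in the order of the effectors. The summed sperm level of purE replicate 1, where most effectors were lowest, lay above every BW25113 library. The adult cuticle collagen col-19 was present in all libraries, at 3342, 3507 and 4090 CPM on BW25113 and 2323, 3350 and 5409 CPM on purE. The adult markers, 9 of 10 in the files, summed to 71046 to 86916 CPM on BW25113 and to 63087, 40251 and 75761 CPM on purE. Of the adult list, col-7 was at 18.2 to 50.2 CPM on BW25113 and at 37.2, 577 and 301 CPM on purE, with a log2 fold change of 3.26 ± 0.86 (SE), and the yolk gene vit-4 had -0.73 ± 0.38 (SE). Sperm markers, 18 of 35 in the files, summed to 481 to 827 CPM on BW25113 and to 1023, 8165 and 4210 CPM on purE. In that list 14 of 15 tested genes were higher at an unadjusted p under 0.05, against 12.7% of all tested genes. The list's median was 2.83, with values of 3.06 for msp-3 and 3.08 for msp-152. Genes of the msp family are close copies of each other, so single values are uncertain.

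Oocyte markers, all 13 tested, summed to 12764 to 16618 CPM on BW25113 and to 10808, 6791 and 11772 CPM on purE. Their median was -0.52, with 0 past an unadjusted p of 0.05, and oma-1 and puf-5 had -0.62 and -0.76. Without purE replicate 2 the median was -0.25. Of the embryo markers 12 of 15 were in the files and 5 tested, with a median of -1.64. All 5 were lower at an unadjusted p under 0.05, against 3.81% of all tested genes, led by ceh-32 at -1.64 and tbx-11 at -2.30. Among the untested embryo markers, med-1 was at 0 in 5 of the 6 libraries. In the same group end-1 stood at 0.110 to 0.582 CPM and end-3 at 0.0381 to 0.107 CPM. Epidermis markers, all 13 tested, summed to 492 to 704 CPM on BW25113 and to 445, 935 and 732 CPM on purE, with a median of 0.10 that turned to -0.24 without purE replicate 2. At an unadjusted p under 0.05, 1 of them was higher and 3 were lower, against 12.7% and 3.81% of all tested genes. The higher one was grd-10, with 1.25 ± 0.35, and the lower ones were sma-1 with -0.87 ± 0.26, lin-26 with -0.73 ± 0.30 and elt-1 with -0.79 ± 0.34 (SE). The gene elt-1 is also in the embryo list. In purE replicate 2 the summed sperm level was the highest and the summed adult and oocyte levels the lowest of all libraries. All yolk genes of the adult list were lowest there. Its collagens were not: col-7 was highest there, at 577 CPM, and col-19 and col-140 were above purE replicate 1. The part of stage or cell makeup in the moulting genes' levels was not tested.

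The genes most alike in pattern were sought among all others with a mean of at least 5 CPM, by the root-mean-square distance between log2 CPM profiles centred over the 6 libraries. For mlt-10 the nearest was lin-42, a period-related gene of the larval timer, at a distance of 0.22, with 40.3, 26.5 and 16.9 CPM on BW25113 and 10.4, 300 and 60.5 CPM on purE. The next was qua-1, at 0.23. For mlt-8 they were F15B9.8 and the patched-related gene ptr-18, both at 0.21. For mlt-11 they were Y65B4BM.3 and F26A10.2, at 0.28 and 0.32.

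For noah-1 the nearest genes were K10D3.4 and the furrow collagen dpy-10, at distances of 0.16 and 0.21. For noah-2 they were the hedgehog-related gene wrt-10, at 0.16, and again K10D3.4, at 0.17. The level of K10D3.4 was 15.4, 10.3 and 4.08 CPM on BW25113 and 1.91, 14.5 and 3.10 CPM on purE. The nearest genes of nhr-23 were nucb-1 and sym-4, at 0.20 and 0.21, and those of nhr-25 were mnp-1 and igcm-3, at 0.13 and 0.16. The level of mnp-1 was 7.74, 8.30 and 5.57 CPM on BW25113 and 2.87, 3.22 and 2.94 CPM on purE. For lrp-1 they were asd-2 and the proprotein convertase gene kpc-1, at 0.05 and 0.12, and for nekl-2 C26B2.7 and Y47G6A.18, at 0.05 and 0.06. Only 2 genes were taken per member, and K10D3.4 was the only one that recurred. Even mlt-8 and mlt-10 shared none, so whether nearest genes are shared cannot separate patterns here.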

How the data were processed

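Whole-body RNA of 6 libraries, 3 per diet, was analysed, and libraries were grouped and numbered by their labels. Estimated counts were deposited by the authors as read counts per gene, per the file headers, with 91.0% to 92.2% of values within 1e-09 of a whole number. FPKM values were deposited by the authors beside them, per the file headers. WBcel235 is the genome build per the submitters' processing notes, and coordinates came from an annotation of that build. No source used here names the aligner, the counter or the strand setting.

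Estimated counts were rounded, filtered with edgeR's default (minimum count 10) and scaled with TMM factors. Diets were compared with edgeR 4.0.16 (quasi-likelihood test, two-sided, R 4.3.3) and Benjamini-Hochberg adjustment over all 12144 genes at a threshold of 0.05. The standard error was the absolute log2 fold change divided by the square root of F. Log2 CPM used a prior count of 2, and FPKM differences a pseudocount of 1. Alternatives were other filters and scalings, DESeq2 1.42.0, limma 3.58.1 (voom, and log2 FPKM), a replicate block, leaving out the 100 most abundant genes, and dropping each library in turn. The procedures were run on simulated data, where a set recovery was required only at a dispersion far below the observed one. No single deviating library was simulated, so recovery under the spread seen here is not shown. In each list the 2 genes of smallest p were named. Some other genes were named outside that rule, among them col-19, dpy-10, dpy-18, med-1, end-1, end-3 and nekl-3. The moulting genes and lists were chosen with earlier results of these data known. Sequences were not analysed here.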

Additional observations from a re-analysis of the deposited data

How the results depend on the processing

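The log2 fold changes of nhr-25, mlt-10 and noah-1 kept their sign under every alternative. The gene bli-5 had values only in fits that hold purE replicates 2 and 3, at 3.22 to 3.92, so its sign was not checked without them. DESeq2 called 946 genes and edgeR with the replicate block 2 (hil-7 and col-165, both lower), against 0; leaving out single libraries gave 0 to 1852, the last without purE replicate 1. Moulting genes past an unadjusted p of 0.05 numbered 1 in place of 2, each time nhr-25, under several alternatives. These were RLE scaling, library size alone, upper-quartile scaling, DESeq2 and limma-voom. The others were limma on log2(FPKM + 1), the replicate block and leaving out the 100 most abundant genes. With no low-count filter, which let bli-5 in, the count was 3 of 10. The count was 2 to 4 without single libraries. Without purE replicate 1 it was 4 of 10, where 18.5% of all genes were higher and 14.8% lower at that p. The value of mlt-11 turned to -0.45 with limma-voom, -0.19 on log2 FPKM and -0.31 with the replicate block, that of lrp-1 to -0.045 with library size alone, and that of nhr-23 to 0.0043 with the filter of 1 CPM and 0.013 with the block. Without single libraries nhr-23 ranged from -0.36 to 0.33, mlt-8 from -0.15 to 2.58, mlt-11 from -1.45 to 1.05, noah-2 from -1.74 to 0.18, lrp-1 from -0.25 to 0.22 and nekl-2 from -0.24 to 0.051. The causes were not tested. Limma on log2 FPKM moved the median of all genes by -0.14. Whether replicate numbers pair the samples was not settled. The deviations of same-numbered libraries correlated at -0.14, -0.17 and 0.14, and of the BW25113 libraries only replicate 3 correlated best with its own number. Deviations centred over so few libraries per diet cannot exclude a shared batch. Depth limits the precision of bli-5 most, at 4 to 131 counts.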
